A study of Mus musculus with 32 samples.

Results

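Untreated cells of C2C12, a mouse line of skeletal myoblasts, were followed over the first 4 h after they were moved from growth medium to differentiation medium. The 2 arrays titled for control cells at 4 h were set against the 2 arrays titled for control cells at 0 h, so the comparison rests on 4 of the 32 Affymetrix arrays of the series. The series holds 20 arrays of untreated cells and of cells given TSA (trichostatin A, which blocks histone deacetylases of the zinc-dependent classes), with 2 arrays for each treatment at 0, 4, 12, 24 and 48 h. It also holds 12 arrays of vector and Sir2 cells, which were not used here. The groups used were untreated cells at 4 h in differentiation medium and untreated cells at 0 h in growth medium, TSA-treated cells at 4 h and at 0 h in the same media, and untreated cells at 12, 24 and 48 h. The dose of TSA and the composition of either medium are not given in the sources used here. Nothing in the labels says that the 2 arrays of a group came from separate cultures, so the p-values measure the spread between these samples, which may be technical. C2C12 is a single established line, so the changes described are those of 1 line in culture.

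Myoblasts divide while serum growth factors are present, and leave the cell cycle, switch on muscle genes and fuse into myotubes when these are withdrawn. Myogenesis is driven by the basic helix-loop-helix factors of the Myod1 family, which bind DNA as dimers with E proteins. Id proteins, which lack the DNA-binding stretch, capture E proteins and so hold the Myod1 family inactive in growing cells. Immediate early genes answer growth factors and mechanical stimuli within minutes to hours and need no new protein for it, so they are the class most often followed right after a change of medium.

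Every array gives each probe set 1 hybridization intensity, which is linear. Intensities at or below 0 occur and mean that no signal above background was measured. Changes are differences of log2(intensity + 137.7), 4 h minus 0 h, followed by their standard error from limma (n = 2 arrays each), and changes of dim probe sets are understated on that scale. The spread of each probe set was taken from all 20 arrays of untreated and TSA-treated cells with limma, and a probe set passed when its Benjamini-Hochberg adjusted p over the 7453 probe sets tested was under 0.05. The 4 arrays each had a trimmed mean of 800, and their medians were 286.4 and 277 at 4 h, against 257.5 and 275.2 at 0 h. The 3′ to 5′ signal ratios of the Gapdh control probe sets were 0.844 and 0.892 at 4 h, against 0.844 and 0.900 at 0 h. Those of the Actb control probe sets were 0.917 and 1.009 at 4 h, against 1.088 and 0.958 at 0 h. The mean level of the Gapdh control probe sets varied more, with 21790 and 16100 at 4 h, against 31270 and 18760 at 0 h. Of 12 myoblast markers, Cdh15, Des, Chrna1, Ncam1, Vcam1, Itga7, Met, Myf5, Myod1 and Mstn were above 0 on all 4 arrays. Fgfr4 was at or below 0 on all 4, and Sdc4 was above 0 on only 1. Of all probe sets, 21.98% and 21.36% were at or below 0 at 4 h, against 21.08% and 21.12% at 0 h. A value above 0 is therefore common and says little about the cell type. Of the genes that mark other cell types, 2 of 9 leukocyte genes (Cd14 and Csf1r), 3 of 8 endothelial genes (Kdr, Flt1 and Tek), 6 of 9 neuronal genes (among them Stmn2 and Tubb3), 4 of 6 smooth muscle genes (Acta2, Tagln, Cnn1 and Des), 5 of 7 adipocyte genes and all 4 bone and cartilage genes were above 0 on all 4 arrays. At or below 0 on all 4 were the leukocyte genes Cd3e, Lyz2 and Itgam, the endothelial genes Cdh5 and Vwf, the neuronal genes Map2, Snap25 and Nefm, the smooth muscle gene Smtn and the adipocyte gene Retn. Kdr had 1336 and 1036 at 4 h, against 412 and 928 at 0 h, and did not pass. No marker list of another cell type had a member that passed. These lists had only 2 to 5 tested members each, and 2.24% of all genes passed.

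In the first 4 h, 153 of 7453 probe sets (2.05%) passed. Of these 81 were higher (1.09%) and 72 lower (0.966%) at 4 h, and they named 141 genes. With 1 probe set per gene, 126 of 5636 genes (2.24%) passed, 67 higher (1.19%) and 59 lower (1.05%). The median change over all these genes was 0.021 on the log2 scale. The median size of the changes that passed was 0.83 among the higher and 0.96 among the lower probe sets, and 28 of the higher and 32 of the lower ones exceeded a log2 change of 1 in size. In bulk samples such as these, fewer cells of a kind and less RNA per cell cannot be told apart. With only 2 arrays a group, many calls depend on each of them. When each of the 4 arrays was left out in turn, between 24 and 45 probe sets passed, with 32 without the first and 36 without the second array of 4 h, and 24 without the first and 45 without the second array of 0 h. In each of these fits the lone sample of a group was assumed to vary like the other groups. In a fit of the 10 untreated arrays alone 42 probe sets passed, 39 of them among the 153. In a fit of the 4 compared arrays alone limma called 0, with a smallest adjusted p of 0.0557 and 1506 probe sets at an unadjusted p under 0.05. Centring each array on its median left 121 probe sets and moved the share of rises to 38.0%, with 46 higher and 75 lower, from 52.9% without it.

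The 19 probe sets that passed with any 1 of the 4 arrays left out name 17 genes and 1 transcript with no gene name here. Lower at 4 h were Id3, Nupr1, Gadd45a, Ccng2, Gas1, Cxcr4, Pdcd4 and a dim probe set of Glul, whose brighter probe set gave 0.22 without passing. Higher were Sox11, Pdgfa, Bysl, Ankrd1, Sema7a, Cx3cl1, Errfi1, Htr1b and 1 of the 2 probe sets of Cdh3. The other 134 probe sets lost the call in at least 1 of these fits. For single genes below, the range of adjusted p over the 4 fits with 1 array left out follows the adjusted p of the fit with all arrays.

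**Figure D1:**
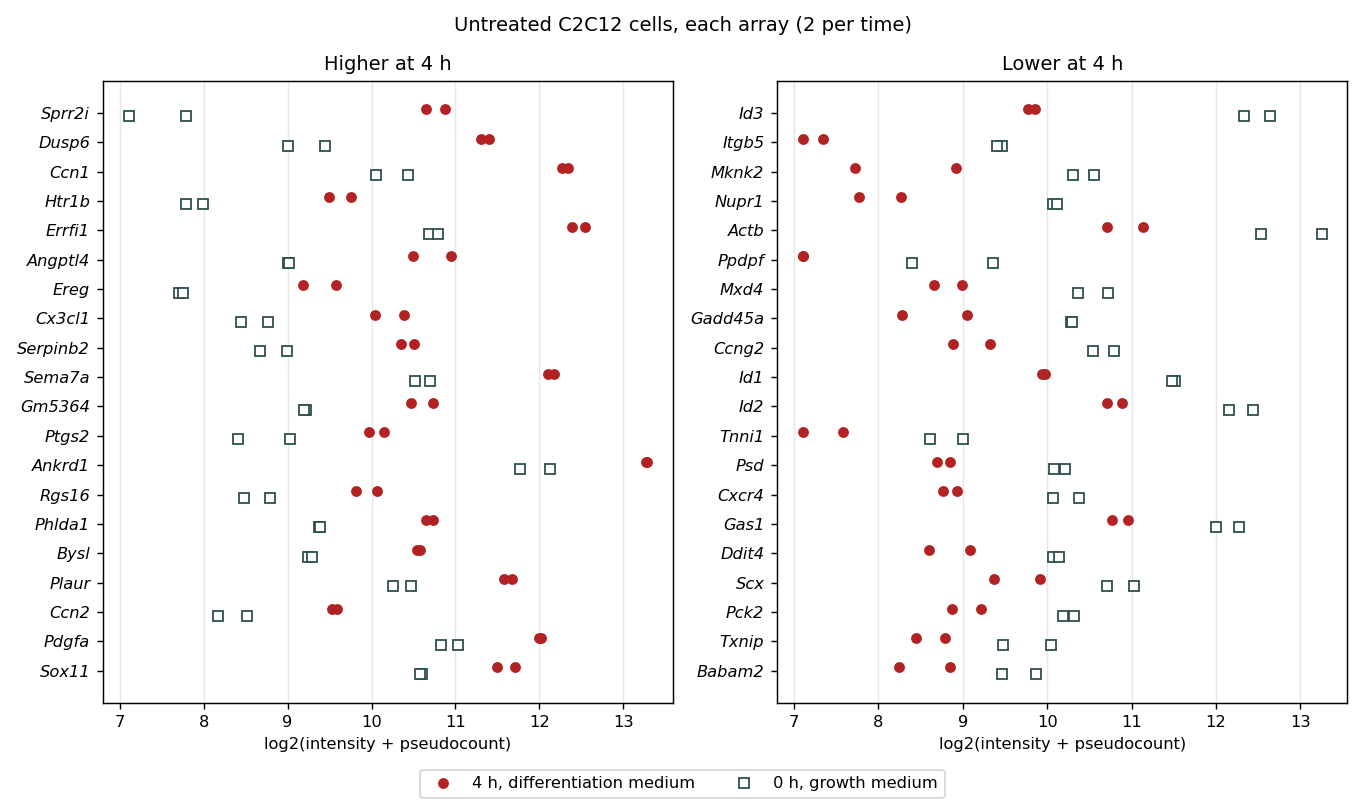
Intensity of the 20 genes per direction with the largest changes that passed (1 probe set per gene), on the 2 arrays of 4 h (filled circles) and the 2 arrays of 0 h (open squares); the axis is log2(intensity + 137.7). In every row the circles and squares do not overlap, which the choice of these genes required; Id3 had 785 and 738 at 4 h, against 6248 and 5035 at 0 h, in linear units.

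Id1, Id2 and Id3 fell together. Id3 had intensities of 785 and 738 at 4 h, against 6248 and 5035 at 0 h, a change of -2.68 ± 0.34 with an adjusted p of 0.00266 from limma. Both arrays of 4 h were far below both of 0 h, and the adjusted p ranged from 0.0186 to 0.0354 with any 1 array left out. Id1 had 840.3 and 865 at 4 h, against 2790.0 and 2719.9 at 0 h (change -1.55 ± 0.25, adjusted p 0.00899, 0.0591 to 0.0892 with 1 array left out). Id2 had 1760.4 and 1535 at 4 h, against 5428 and 4434 at 0 h (change -1.50 ± 0.25, adjusted p 0.0103, 0.0456 to 0.139). The promoters of Id3 and Id2 are shown because these genes changed together and are known targets of bone morphogenetic protein signalling through Smad proteins. The Smad1 GC-rich element marked in Id2 is absent from the Id3 sequence, where GC boxes are marked instead. The Id2 sequence also holds a GC box, which is left unmarked. Each sequence is the 250 bases before the transcription start in RefSeq, build GRCm38.p6, read 5′ to 3′ on the gene's strand. In Id3 (chr4:136143572-136143821, plus strand) the capitals mark 2 overlapping GC boxes (GGGCGG on either strand, in 32.7% of the 32851 mouse promoters searched and 64.2% of those of tested genes), and in Id2 (chr12:25096093-25096342, minus strand) a Smad1 GC-rich element (GGCGCC, in 9.59% of all and 20.2% of tested promoters).
Id3: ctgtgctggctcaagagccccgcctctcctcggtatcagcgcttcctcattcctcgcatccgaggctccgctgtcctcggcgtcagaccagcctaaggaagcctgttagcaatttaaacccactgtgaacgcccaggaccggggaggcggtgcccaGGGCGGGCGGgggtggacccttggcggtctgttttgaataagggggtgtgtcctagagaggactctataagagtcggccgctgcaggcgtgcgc
Id2: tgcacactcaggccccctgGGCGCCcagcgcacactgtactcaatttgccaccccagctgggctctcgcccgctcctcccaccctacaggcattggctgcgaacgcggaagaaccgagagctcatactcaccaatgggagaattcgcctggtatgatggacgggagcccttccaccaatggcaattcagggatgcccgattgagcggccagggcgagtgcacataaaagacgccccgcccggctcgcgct
The GC box lay in 35 of the 58 higher (60.3%) and 40 of the 52 lower genes with a promoter (76.9%), and the Smad1 element in 13 (22.4%) and 15 (28.8%). These matches describe the letters only.

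Among 17 tested genes of the list of Id proteins and other repressors of myogenesis, 4 fell, none rose and 13 did not pass, with a list median of -0.096 against 0.021 over all genes. The fourth was Snai2 (Slug), a zinc-finger repressor that occupies E-boxes of muscle genes, with 967 and 841 at 4 h, against 1638 and 2236 at 0 h (change -0.98 ± 0.18, adjusted p 0.0182, 0.042 to 0.15). Between 1 and 2 of the 4 passed with 1 array left out. The other repressors did not move together. Twist1, which also binds E proteins, had 505 and 410.0 at 4 h, against 289 and 112 at 0 h (adjusted p 0.266), and Msx1, a homeobox repressor of Myod1, had 1525 and 1608 at 4 h, against 1018 and 1215 at 0 h (adjusted p 0.123). The Notch target Hes1 had 2271 and 1987 at 4 h, against 1498 and 1488 at 0 h (adjusted p 0.194). Neither array of 4 h had Hey1 above 0, against 255 and 280.0 at 0 h, and did not pass (adjusted p 0.094). Among genes of the bone morphogenetic protein and TGF-beta pathway, 0 of 27 passed, and 0 of 8 did in the Notch pathway. With 2.24% of all genes passing, lists of this size can be without a call. Mdfi, Zeb1, Snai1, Hdac5, Tcf4, Bhlhe40, Musk, Sox4 and the myostatin gene Mstn had changes between -0.42 and 0.65 and did not pass. Id4 and Twist2 were too dim on average to be tested.

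None of the 12 tested myogenic factors, the drivers of myogenesis, passed at 4 h, beside 2.24% of all genes, and their median change was 0.054. Myod1, the determination factor, had 1447 and 1476 at 4 h, against 1808 and 1934 at 0 h, both arrays of 4 h lying below those of 0 h (change -0.33 ± 0.11, adjusted p 0.154). Myf5, its partner in proliferating myoblasts, had 1371 and 1398 at 4 h, against 1268 and 1763 at 0 h, with overlapping groups. Myog, the factor that begins terminal differentiation, had 203 and 849 at 4 h, against -40.8 and 183 at 0 h. The 2 arrays of 4 h differed over 4-fold, the change of 1.46 ± 0.44 had an adjusted p of 0.123, and with 1 array left out it ranged from 0.0401 to 0.68, passing only without the first array of 4 h. Mef2c, a cofactor of Myog, had 386 and 579 at 4 h, against 104 and 89.9 at 0 h (change 1.39 ± 0.33, adjusted p 0.0505), just outside the threshold. The E protein genes Tcf12 and Tcf3 had changes of -0.37 and 0.42, and the other Mef2 genes, Pax3, Six4 and Eya1 lay between -0.83 and 0.45. None of these passed.

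Calls among structural muscle genes at 4 h are read beside the 126 of 5636 genes (2.24%) that passed over all genes. Of 26 tested sarcomere genes 1 passed: Tnni1, slow skeletal troponin I, was lower, with -179 and 53.4 at 4 h, against 252 and 376 at 0 h (change -1.46 ± 0.34, adjusted p 0.0474, 0.101 to 0.344). Both of its arrays of 4 h lay near or below 0, in the range where the scale is compressed. Acta1, skeletal actin, had 64.5 and 152 at 4 h, against 9.38 and 113 at 0 h, with overlapping groups (adjusted p 0.601). The calcium pump of fast muscle, Atp2a1, rose to 299 and 278 at 4 h, against 76.7 and 85.6 at 0 h (change 0.96 ± 0.21, adjusted p 0.0365, 0.129 to 0.247). A second, dim probe set of Atp2a1 was below 0 on all 4 arrays.

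Genes that FoxO factors and growth factor withdrawal are known to raise were among the lower ones at 4 h. Of 17 tested members of that list 6 fell, beside 1.05% of all genes, none rose and 11 did not pass, with a median of -0.45. The count was 2 to 3 with 1 array left out. Ccng2 and Gadd45a, which restrain the cell cycle, lead the list. Ccng2 had 502 and 333 at 4 h, against 1354 and 1629 at 0 h (change -1.57 ± 0.21, adjusted p 0.00324, 0.0115 to 0.0333). Gadd45a had 392 and 172 at 4 h, against 1104 and 1121 at 0 h (change -1.62 ± 0.22, adjusted p 0.00324, 0.00128 to 0.0354). In both genes each array of 4 h was far below each array of 0 h.

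The other 4 members of that list passed in the fit of all arrays. Sesn1, an inhibitor of the growth-promoting kinase complex mTORC1, had 279 and 269.9 at 4 h, against 661 and 677 at 0 h (change -0.97 ± 0.16, adjusted p 0.00836, 0.0619 to 0.0815). Gabarapl1, an autophagy protein, had a change of -0.45 ± 0.10 (adjusted p 0.0359, 0.13 to 0.239), and Pdk4, which blocks the entry of pyruvate into the citric acid cycle, one of -0.70 ± 0.16 (adjusted p 0.0458, 0.159 to 0.285). Txnip, an inhibitor of thioredoxin and of glucose uptake, had 211 and 305 at 4 h, against 922 and 572 at 0 h on the probe set of higher mean over all 20 arrays (change -1.14 ± 0.21, adjusted p 0.0155, 0.0231 to 0.209). Its other probe set, the brighter one on 3 of the 4 arrays compared, went the other way and did not pass, with 925 and 823 at 4 h, against 600.1 and 642 at 0 h (change 0.41, adjusted p 0.474), so the direction of Txnip is uncertain. The Txnip promoter (chr3:96557707-96557956, plus strand, RefSeq, GRCm38.p6) is shown with a forkhead site, the kind of element FoxO proteins bind, in capitals (GTAAACA on either strand, in 3.17% of promoters).
Txnip: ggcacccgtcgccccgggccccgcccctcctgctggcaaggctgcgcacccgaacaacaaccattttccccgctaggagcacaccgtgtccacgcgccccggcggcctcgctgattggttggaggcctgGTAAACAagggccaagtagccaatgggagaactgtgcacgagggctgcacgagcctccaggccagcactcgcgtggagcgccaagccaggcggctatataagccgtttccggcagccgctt
A forkhead site was found in 2 of the 52 lower genes with a promoter in the table (3.85%) and in 2 of the 58 higher ones (3.45%), beside 2.56% of tested genes.

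Gas1, Mxd4 and Pdcd4 also fell. Gas1, a membrane protein that accumulates in arrested fibroblasts, had 1608 and 1850.3 at 4 h, against 3949 and 4813 at 0 h (change -1.27 ± 0.18, adjusted p 0.00351, 0.0229 to 0.0497). Mxd4, a partner of Max that opposes Myc, had 265 and 371 at 4 h, against 1182 and 1552 at 0 h (change -1.72 ± 0.25, adjusted p 0.00465, 0.0229 to 0.071). Pdcd4, an inhibitor of translation initiation, had 304 and 332 at 4 h, against 846 and 848 at 0 h (change -1.11 ± 0.15, adjusted p 0.00338, 0.0266 to 0.0418), and is named after its values were seen. In the list of cell cycle inhibitors and exit genes, 3 of 17 fell (Ccng2, Gadd45a and Gas1, each also with any 1 array left out), 1 rose and 13 did not pass. The member that rose, Gadd45g, had 2524 and 2339 at 4 h, against 1639 and 1658 at 0 h (change 0.52 ± 0.12, adjusted p 0.0475, 0.129 to 0.313). Cdkn1a, the p21 inhibitor that locks differentiating myoblasts out of the cycle, had 487 and 1964 at 4 h, against 692 and 198 at 0 h on the probe set of higher mean over all 20 arrays, with groups that overlap (adjusted p 0.354). The other Cdkn1a probe set, brighter on 3 of these 4 arrays, had 1398 and 1691 at 4 h, against 904 and 1035 at 0 h, with no overlap but without passing (adjusted p 0.133). In the p53 target list 2 of 13 fell, and both, Gadd45a and Sesn1, are also FoxO targets. The counts of these lists stand beside 1.05% of all genes lower and 1.19% higher.

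**Figure D2:**
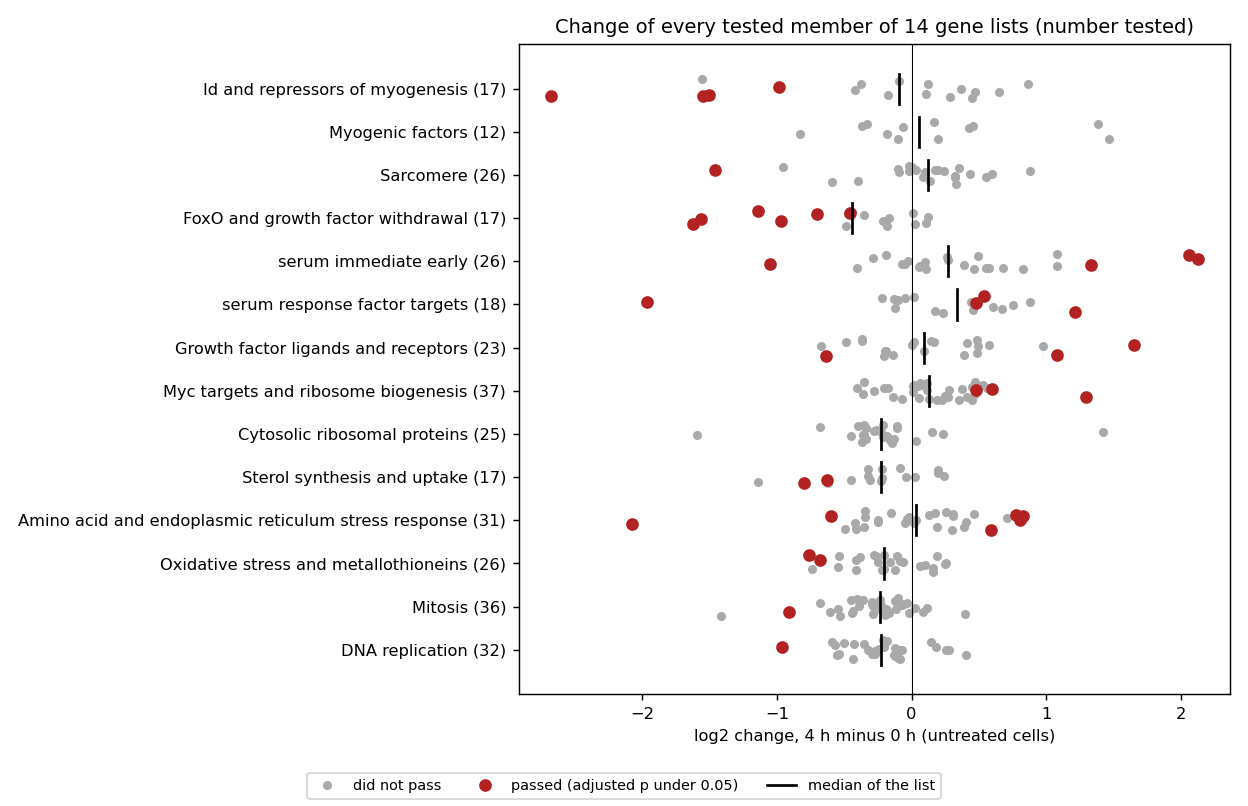
Change at 4 h against 0 h in untreated cells (log2, horizontal axis) of each tested member of 14 gene lists, 1 probe set per gene. Large red points passed, small grey points did not, and the bar is the median of the list, which is -0.45 for the FoxO list and 0.34 for the serum response factor targets.

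Several genes known to answer growth factors were among the risers, while others of the kind did not pass and Fgfr1 fell. Errfi1 (Mig6), a feedback inhibitor of the epidermal growth factor receptor, had 5209 and 5836 at 4 h, against 1512 and 1637 at 0 h (change 1.72 ± 0.20, adjusted p 0.00142, 0.0125 to 0.0258). A second probe set gave 5733 and 5739.5 at 4 h, against 1551 and 1495 at 0 h (change 1.82 ± 0.24, adjusted p 0.00324). On both probe sets the 4 h arrays were over 3 times those of 0 h. Dusp6, the phosphatase that switches off ERK, had 2383 and 2568 at 4 h, against 375 and 559 at 0 h (change 2.13 ± 0.45, adjusted p 0.0328, 0.0951 to 0.263). Ereg, a ligand of that receptor, had 445 and 627 at 4 h, against 71.4 and 78.4 at 0 h (change 1.65 ± 0.24, adjusted p 0.00465, 0.0252 to 0.0577). Phlda1, another gene that growth factors induce, had 1462 and 1569.8 at 4 h, against 528 and 529 at 0 h (change 1.31 ± 0.23, adjusted p 0.0114, 0.0786 to 0.115). The Errfi1 promoter (chr4:150854820-150855069, plus strand, the first of 2 starts in RefSeq, GRCm38.p6) is shown because both of its probe sets rose with any 1 array left out, and its capitals mark a cAMP response element (TGACGTCA, in 1.55% of promoters).
Errfi1: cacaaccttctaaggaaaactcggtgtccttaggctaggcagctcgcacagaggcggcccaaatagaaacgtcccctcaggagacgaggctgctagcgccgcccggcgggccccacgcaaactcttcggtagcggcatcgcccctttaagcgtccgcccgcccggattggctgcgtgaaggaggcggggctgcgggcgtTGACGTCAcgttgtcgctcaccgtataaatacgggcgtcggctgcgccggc
This was the only such element among the 58 higher genes with a promoter (1.72%), and 2 of the 52 lower genes held one (3.85%), beside 2.95% of tested genes.

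Of the 23 tested growth factor ligands and receptors, 2 rose, 1 fell and 20 did not pass. Pdgfa, a mitogen of mesenchymal cells, had 4025 and 3966 at 4 h, against 1957 and 1681 at 0 h (change 1.08 ± 0.15, adjusted p 0.00433, 0.0316 to 0.0483), and Ereg was the second. Fgfr1, the main fibroblast growth factor receptor of myoblasts, fell to 1122 and 1148 at 4 h, against 1849.7 and 1839.5 at 0 h (change -0.64 ± 0.13, adjusted p 0.0294, 0.114 to 0.212). Fgf11, outside the list, an intracellular member of the fibroblast growth factor family, had 1081 and 1192 at 4 h, against 539 and 653 at 0 h (change 0.80 ± 0.16, adjusted p 0.0251, 0.0741 to 0.247). None of the 16 tested genes of the insulin-like growth factor axis passed, beside 2.24% of all genes. Follistatin (Fst), which blocks myostatin, had 99.6 and 144 at 4 h, against 52.7 and 67.1 at 0 h (adjusted p 0.359).

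Of 26 tested serum immediate early genes, 3 rose (beside 1.19% of all genes), 1 fell (beside 1.05%) and 22 did not pass. The median was 0.27 and 19 members had a change above 0, against 52.6% of all genes. With 1 array left out none of the 3 rises passed, and 2 did after each array was centred on its median. Ccn1 (Cyr61), a secreted matrix-associated protein, had 5038 and 4811 at 4 h, against 928 and 1243 at 0 h (change 2.06 ± 0.38, adjusted p 0.0149, 0.0707 to 0.182). Ptgs2, the inducible cyclooxygenase, had 864 and 996 at 4 h, against 203 and 386 at 0 h (change 1.34 ± 0.30, adjusted p 0.0458, 0.0741 to 0.352). Klf4, a zinc-finger factor found in arrested cells, fell to 171 and 245 at 4 h, against 588 and 561 at 0 h (change -1.05 ± 0.19, adjusted p 0.0121, 0.0408 to 0.139).

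The classical transcription factors of the class did not pass at 4 h. Egr1 had 2282 and 2498 at 4 h, against 1231 and 1346 at 0 h (change 0.83 ± 0.32, adjusted p 0.237), Fos 276 and 239 at 4 h, against 110.1 and 147 at 0 h (0.57 ± 0.24, 0.273) and Myc 522 and 441 at 4 h, against 295 and 325 at 0 h (0.46 ± 0.16, 0.174). In all 3 genes both arrays of 4 h lay above both of 0 h, as did 55.8% of all probe sets in one direction or the other. Fosl1, the AP-1 subunit of late induction, had 1758 and 2492 at 4 h, against 863 and 972 at 0 h (change 1.08 ± 0.36, adjusted p 0.162), and Atf3 had 953 and 838 at 4 h, against 373 and 329 at 0 h (change 1.08 ± 0.38, adjusted p 0.187). Ier2 had a change of 0.68 ± 0.36 and Egr2 one of 0.49 ± 0.52. Klf6, Junb, Jun, Jund, Fosb, Fosl2, Dusp1, Ier3, Klf10, Maff, Nr4a2, Btg1, Btg2, Spry4 and Zfp36 lay between -0.41 and 0.55. Nr4a1 and Klf2 were too dim to be tested.

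Targets of serum response factor, which reads the state of the actin cytoskeleton, had a median of 0.34. Of 18 tested, 3 rose (beside 1.19% of all genes), 1 fell (beside 1.05%) and 14 did not pass. Of the rises 0 to 1 passed with 1 array left out, and 1 after each array was centred on its median. Ccn2 (connective tissue growth factor) had 630.2 and 602 at 4 h, against 229 and 149 at 0 h (change 1.22 ± 0.21, adjusted p 0.0103, 0.042 to 0.106). Lima1, an actin-bundling protein, had a change of 0.54 ± 0.13 (adjusted p 0.0487, 0.126 to 0.332). Actn1, alpha-actinin 1, had 11049 and 11503 at 4 h, against 7860.4 and 8267 at 0 h on its brightest probe set (change 0.48 ± 0.09, adjusted p 0.0248, 0.0902 to 0.227), while its other probe sets gave 0.52 and -0.26, neither passing. Vcl, vinculin of focal adhesions, had 2789 and 2860.0 at 4 h, against 1351 and 1490.3 at 0 h on its dimmer probe set (change 0.93 ± 0.13, adjusted p 0.00338, 0.0264 to 0.0568). Its brighter probe set, the one counted in the list, had a change of 0.45 ± 0.12 (adjusted p 0.0965).

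The Vcl promoter (chr14:20929148-20929397, plus strand, RefSeq, GRCm38.p6) is shown with its CArG box, the binding sequence of serum response factor, in capitals.
Vcl: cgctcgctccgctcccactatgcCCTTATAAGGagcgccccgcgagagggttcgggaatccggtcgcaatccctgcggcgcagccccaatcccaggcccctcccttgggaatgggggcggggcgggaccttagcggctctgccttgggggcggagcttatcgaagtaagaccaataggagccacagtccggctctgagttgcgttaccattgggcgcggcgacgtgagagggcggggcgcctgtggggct
A CArG box lay in the promoters of 4 of the 58 higher genes (6.90%: Fhl1, Lima1, Top1 and Vcl) and of 1 of the 52 lower genes (Mknk2, 1.92%). It lay in 1.47% of all promoters and in those of 1.67% of tested genes. Fhl1, Csrp1 (1 of its 2 probe sets that passed) and Vasp, cytoskeletal proteins that are named after their values were seen, also passed, with changes of 0.42 ± 0.09 (adjusted p 0.0414, 0.143 to 0.209), 0.45 ± 0.10 (0.0462, 0.152 to 0.264) and 0.48 ± 0.11 (0.0494, 0.13 to 0.26). A second Fhl1 probe set had 1336 and 2235 at 4 h, against 1961 and 2443 at 0 h, a change of -0.32 that did not pass. Nes, the intermediate filament protein nestin of myoblasts, had 10541 and 9959 at 4 h, against 6831 and 6961 at 0 h (change 0.56 ± 0.12, adjusted p 0.0294, 0.0977 to 0.222) and was chosen likewise.

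Actb, cytoplasmic actin, was the member that fell. Its brighter probe set had 2114 and 1536 at 4 h, against 9613 and 5778 at 0 h (change -1.97 ± 0.31, adjusted p 0.00743, 0.0169 to 0.0942), and its second one 831 and 429 at 4 h, against 3632 and 2095 at 0 h (change -1.97 ± 0.33, adjusted p 0.0103). The 3 Affymetrix control probe sets for the same gene did not separate the groups: their mean was 21670 and 14970 at 4 h, against 31490 and 19480 at 0 h. The size of the Actb change therefore depends on the probe set. Ankrd1, an ankyrin repeat protein of muscle and a target of mechanical signalling, had 9865 and 9776 at 4 h, against 3367 and 4353 at 0 h (change 1.33 ± 0.17, adjusted p 0.00234, 0.00837 to 0.0354), so that the 2 arrays of 4 h were nearly equal.

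The list of Myc targets and ribosome biogenesis genes held only rises among its calls. Of 37 tested, 3 rose and none fell, 29 had a change above 0, and the median was 0.13 against 0.021 over all genes. Bysl, a factor of small subunit assembly, had 1389 and 1357 at 4 h, against 469 and 489 at 0 h (change 1.29 ± 0.14, adjusted p 0.00126, 0.0126 to 0.0258) and was the one that passed with any 1 array left out. Rrs1, a regulator of ribosome synthesis, had 1759 and 1710.3 at 4 h, against 1105 and 1096 at 0 h (change 0.60 ± 0.10, adjusted p 0.0103, 0.0591 to 0.104), and Wdr43, which acts in ribosomal RNA transcription, had a change of 0.48 ± 0.10 (adjusted p 0.0365, 0.13 to 0.201). Tsr1 and Utp4, ribosome assembly factors outside the list, also passed, with changes of 0.70 ± 0.13 (adjusted p 0.0168, 0.0425 to 0.221) and 0.52 ± 0.12 (0.0481, 0.153 to 0.306), and were chosen after their values were seen. The ribosomal protein genes themselves had a median of -0.23, 21 of 25 being below 0, and none passed, beside 2.24% of all genes. After each array was centred on its median, 2 members of the Myc list passed, both higher.

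In the amino acid and endoplasmic reticulum stress list 4 of 31 tested genes rose, beside 1.19% of all genes. In that list 2 fell, beside 1.05% of all genes, and 25 did not pass, with a median of 0.036. The 4 that rose act in protein folding or disposal in the endoplasmic reticulum. Creld2 had 2112 and 2086 at 4 h, against 1044 and 1207 at 0 h (change 0.83 ± 0.16, adjusted p 0.0182, 0.0707 to 0.212). Pdia4, a disulfide isomerase, had a change of 0.77 ± 0.16 (adjusted p 0.0271, 0.105 to 0.172). Dnajc3, a co-chaperone and inhibitor of eIF2 kinases, had 0.81 ± 0.17 (adjusted p 0.0321, 0.0826 to 0.275). Herpud1, which serves the degradation of misfolded proteins, had 0.59 ± 0.14 (adjusted p 0.047, 0.138 to 0.302). After median centring of each array 2 of these 4 passed, and none passed with 1 array left out.

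The 2 members that fell are transcription regulators. Nupr1, a small chromatin protein induced by stress and amino acid shortage, had 81.3 and 169.8 at 4 h, against 937 and 975 at 0 h (change -2.08 ± 0.17, adjusted p 0.000118, 0.000154 to 0.0032). Both arrays of 4 h were far below those of 0 h, and no probe set had a smaller p. Cebpb, a leucine zipper factor of the same response, had 764 and 724 at 4 h, against 1224 and 1170.4 at 0 h (change -0.60 ± 0.14, adjusted p 0.0462, 0.161 to 0.285). Pck2, outside the list, the mitochondrial enzyme that makes phosphoenolpyruvate, had 329.8 and 458 at 4 h, against 1031 and 1141 at 0 h (change -1.21 ± 0.26, adjusted p 0.0359, 0.0875 to 0.278). The Nupr1 promoter (chr7:126625471-126625720, minus strand, RefSeq, GRCm38.p6) is shown because this is the largest change of the list, and its capitals mark the core of an amino acid response element, the site of Atf4 with a Cebp partner (TGATGNAA on either strand, in 3.45% of promoters).
Nupr1: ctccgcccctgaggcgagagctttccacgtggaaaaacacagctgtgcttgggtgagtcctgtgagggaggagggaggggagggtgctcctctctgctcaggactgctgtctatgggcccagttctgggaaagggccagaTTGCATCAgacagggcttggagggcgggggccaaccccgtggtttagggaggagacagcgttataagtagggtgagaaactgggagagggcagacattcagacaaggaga
The core was found in 2 of the 58 higher (3.45%) and 3 of the 52 lower genes (5.77%), beside 2.31% of tested genes.

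Genes of sterol synthesis leaned to lower values. Of 17 tested, 13 had a change below 0, against 47.3% of all genes, and the median was -0.22 against 0.021 over all genes. Of these 17, 2 fell, beside 1.05% of all genes, and none rose. Neither fall passed in a fit of the 10 untreated arrays. Hmgcs1, which makes the precursor of mevalonate, had 6221 and 5873 at 4 h, against 10346 and 10875 at 0 h (change -0.80 ± 0.16, adjusted p 0.0294, 0.138 to 0.182). Sqle, squalene epoxidase, had 4381 and 4199 at 4 h, against 6852 and 6537 at 0 h (change -0.63 ± 0.13, adjusted p 0.0319, 0.118 to 0.239). Msmo1, sterol methyl oxidase, had 1902 and 1849 at 4 h, against 4187 and 4435 at 0 h (change -1.14 ± 0.28) and missed the threshold with an adjusted p of 0.0645. Mvd, Lss, Fdft1, Cyp51, Dhcr7, Idi1, Hsd17b7, Fdps, Nsdhl, Srebf1, Sc5d, Mvk, Tm7sf2 and Ebp had changes between -0.62 and 0.24. Insig1 was too dim to be tested. The Hmgcs1 promoter (chr13:119690101-119690350, plus strand, RefSeq, GRCm38.p6) is shown with the sterol response element, the site of the Srebf factors, in capitals (TCACNCCAC on either strand, in 1.05% of promoters).
Hmgcs1: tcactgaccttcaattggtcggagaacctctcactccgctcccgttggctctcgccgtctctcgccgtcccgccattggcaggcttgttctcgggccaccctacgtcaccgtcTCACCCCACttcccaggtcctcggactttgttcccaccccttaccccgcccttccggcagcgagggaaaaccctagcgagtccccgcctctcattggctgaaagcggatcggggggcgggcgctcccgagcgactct
Of the 52 lower genes with a promoter 2 held it, Hmgcs1 and Sesn1, and of the 58 higher genes none did, beside 1.28% of tested genes.

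The counts of other stress and metabolic genes stand beside the 2.24% of all genes that passed. In the oxidative stress list 2 of 26 fell: the haem oxygenase Hmox1, with 3491 and 2997 at 4 h, against 5749.6 and 5426 at 0 h (change -0.76 ± 0.13, adjusted p 0.0103, 0.0401 to 0.12), and the autophagy receptor Sqstm1, with a change of -0.68 ± 0.14 (adjusted p 0.0321, 0.085 to 0.268). In the glycolysis and hypoxia list 2 of 27 fell: Ddit4 (Redd1), an inhibitor of mTORC1, with 405 and 249 at 4 h, against 939 and 992 at 0 h (change -1.27 ± 0.22, adjusted p 0.0111, 0.0333 to 0.104), and Mxi1, a Myc antagonist, with 136 and 144 at 4 h, against 297 and 359.7 at 0 h (change -0.74 ± 0.14, adjusted p 0.0177, 0.0815 to 0.136). In the glucocorticoid and circadian list 1 of 17 rose and 2 fell. The one that rose was Angptl4, an inhibitor of lipoprotein lipase, with 1842 and 1305 at 4 h, against 374 and 381 at 0 h (change 1.72 ± 0.25, adjusted p 0.00465, 0.021 to 0.071). Nr1d2, a clock repressor, fell to 373 and 528 at 4 h, against 1080.1 and 1039 at 0 h (change -1.04 ± 0.19, adjusted p 0.0141, 0.0344 to 0.158), and Cebpb was the other. No member passed among 20 heat shock, 10 fatty acid synthesis, 41 oxidative phosphorylation or 30 proteasome genes.

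Most replication and mitosis genes had changes below 0, and 1 of each list passed, beside 2.24% of all genes. Of 32 tested DNA replication genes 27 were below 0 (median -0.23), against 47.3% of all genes, and 1 fell. That gene, Rpa2, of the single-strand binding complex, had 153 and 213 at 4 h, against 489.6 and 481 at 0 h (change -0.96 ± 0.22, adjusted p 0.0458, 0.105 to 0.33). Of 36 mitosis genes 32 were below 0 (median -0.24) and 1 fell. It was Nusap1, of the mitotic spindle, with 1322 and 1339 at 4 h, against 2422 and 2841 at 0 h (change -0.91 ± 0.16, adjusted p 0.0112, 0.0626 to 0.109), whose dim second probe set gave 0.16 without passing. Dlgap5, a further spindle gene, had 481 and 590.2 at 4 h, against 893 and 829 at 0 h (change -0.57 ± 0.12, adjusted p 0.035, 0.0628 to 0.296), while Cdk1 had 5232 and 5230.3 at 4 h, against 6419.5 and 5089.9 at 0 h and did not pass. Aspm and Cdc25c, mitotic genes outside the list that were named after their values were seen, fell with changes of -1.01 ± 0.18 (adjusted p 0.0139, 0.0506 to 0.153) and -0.80 ± 0.18 (0.0474, 0.0682 to 0.369). The cyclin gene Ccnd1, a target of growth factors, had 3911 and 3547 at 4 h, against 2572 and 2396 at 0 h (change 0.56 ± 0.23, adjusted p 0.258), and none of 15 genes of entry into the cycle passed.

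Several receptors, ligands and secreted factors were among the largest changes. Cxcr4, the receptor of the chemokine Cxcl12 on muscle precursors, had 299 and 349.7 at 4 h, against 934 and 1191 at 0 h (change -1.37 ± 0.17, adjusted p 0.00234, 0.0177 to 0.0333). A probe set of Cxcl12 itself, named after its values were seen, had 225 and 217 at 4 h, against 571 and 586 at 0 h (change -0.996 ± 0.17, adjusted p 0.0103, 0.074 to 0.0961). The other 2 probe sets of Cxcl12, both brighter, gave -0.44 and -0.37 without passing (adjusted p 0.521 and 0.236). Cx3cl1 (fractalkine), a membrane-bound chemokine, had 916 and 1203 at 4 h, against 297 and 209.9 at 0 h (change 1.61 ± 0.16, adjusted p 0.000708, 0.00226 to 0.0119). It and Ptgs2 were the 2 of 15 tested chemokine and inflammatory genes that rose, beside 1.19% of all genes, and none fell. Semaphorins are guidance molecules for migrating cells, and Sema7a, the membrane-anchored one, had 4486 and 4267 at 4 h, against 1329 and 1520.0 at 0 h (change 1.53 ± 0.13, adjusted p 0.000118, 0.00142 to 0.0032). Htr1b, a serotonin receptor, had 580.1 and 728 at 4 h, against 83 and 116 at 0 h (change 1.74 ± 0.19, adjusted p 0.00126, 0.00837 to 0.0258).

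Plaur and Serpinb2, both of the plasminogen activator system, were among the larger rises. Plaur, the urokinase receptor, had 2924 and 3127 at 4 h, against 1085 and 1286 at 0 h (change 1.26 ± 0.29, adjusted p 0.0458, 0.137 to 0.302), and Serpinb2, plasminogen activator inhibitor 2, had 1174 and 1312 at 4 h, against 268 and 373 at 0 h (change 1.60 ± 0.27, adjusted p 0.0103, 0.0432 to 0.139). In the extracellular matrix list 2 of 40 rose, beside 1.19% of all genes, and none fell. Tnc, tenascin C, had 3787 and 4064 at 4 h, against 2151 and 2172 at 0 h (change 0.82 ± 0.14, adjusted p 0.0108, 0.077 to 0.115), and Has2, a hyaluronan synthase, had 1477 and 1579 at 4 h, against 741 and 782 at 0 h (change 0.89 ± 0.18, adjusted p 0.0248, 0.103 to 0.211). In the adhesion, migration and fusion list 1 of 28 rose (Plaur) and 1 fell, beside 1.19% and 1.05% of all genes. The member that fell was the integrin gene Itgb5, whose probe set of higher mean over all 20 arrays had -171 and 24.3 at 4 h, against 566 and 541 at 0 h (change -2.21 ± 0.40, adjusted p 0.0141, 0.0725 to 0.139). The other Itgb5 probe set, brighter on each of these 4 arrays with 829.6 and 842 at 4 h, against 612 and 689 at 0 h, gave 0.31 without passing, so the direction of Itgb5 is uncertain. For Cdh3, P-cadherin, 706 and 765 at 4 h, against 35.7 and -48 at 0 h were measured on the probe set that passed (change 2.50 ± 0.31, adjusted p 0.00234), and the other one gave 0.20 (adjusted p 0.837).

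Among the remaining genes of large change, 3 are transcription or translation regulators. Sox11, a factor of embryonic progenitors, had 2757 and 3208 at 4 h, against 1418 and 1394 at 0 h (change 1.01 ± 0.13, adjusted p 0.00324, 0.0186 to 0.0354). Scx (scleraxis), the tendon factor, had 526 and 826 at 4 h, against 1954 and 1535 at 0 h (change -1.23 ± 0.21, adjusted p 0.0108, 0.021 to 0.165). Mknk2, a kinase of the initiation factor eIF4E, had 72.8 and 347 at 4 h, against 1361 and 1131 at 0 h (change -2.11 ± 0.32, adjusted p 0.00644, 0.00142 to 0.0824). Rgs16, a brake on G protein signalling, rose by 1.32 ± 0.31 (adjusted p 0.0482, 0.129 to 0.327), and the desmosome gene Pkp2 by 0.82 ± 0.18 (adjusted p 0.0359, 0.0902 to 0.285). The largest rise by size, Sprr2i of the small proline-rich family, had 1749 and 1474 at 4 h, against 83 and -30.8 at 0 h (change 3.32 ± 0.65, adjusted p 0.0235, 0.0941 to 0.158). The largest fall by size was on a probe set of Gstm3, a glutathione transferase, named after its values were seen, with -398 and 135 at 4 h, against 1482 and 1569 at 0 h (change -3.10 ± 0.72, adjusted p 0.0487, 0.105 to 0.347). The brighter Gstm3 probe set gave 0.07 without passing. These 2 genes also had the widest errors of those that passed. Gm5364 rose by 1.39 ± 0.30 (adjusted p 0.0365, 0.11 to 0.26). Psd, which activates the small GTPase Arf6, had a change of -1.38 ± 0.30 (adjusted p 0.0365, 0.123 to 0.234), Babam2, of a BRCA1 complex, -1.12 ± 0.26 (0.0458, 0.0591 to 0.361) and 2700099C18Rik -0.73 ± 0.12 (0.00836, 0.0401 to 0.0841). Neither array of 4 h had Ppdpf above 0, against 516 and 201 at 0 h (adjusted p 0.0417, 0.0508 to 0.339). No fold is given for it, nor for Abhd8, since a group at or below 0 has no measured spread on this scale.

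Untreated cells at later times show the levels that followed the early changes. Levels at 12, 24 and 48 h are given beside those at 0 and 4 h without a test, since every difference from 0 h shares the 0 h arrays. Id3 had mean intensities of 5641 ± 858, 761 ± 33.7, 734 ± 54.6, 451 ± 49.8 and 648 ± 471 at 0, 4, 12, 24 and 48 h (SD, n = 2 each). Its mean stayed near the level of 4 h at each later time. Id2 had lower means still, with 1093 ± 49.3 at 12 h and 99.5 ± 47.7 at 48 h. Nupr1 had 956 ± 26.5, 126 ± 62.6, 925 ± 126, 5087 ± 608 and 8927 ± 738, and Gadd45a 1112 ± 11.7, 282 ± 156, 436 ± 43.9, 5454 ± 245 and 14161 ± 1542. Both genes were lowest at 4 h and highest at 48 h. Errfi1 had 1575 ± 88.7, 5522 ± 444, 3728 ± 647, 947 ± 63.5 and 558 ± 17.8, and Ccn1 1085 ± 223, 4924 ± 161, 2082 ± 492, 714 ± 103 and 236 ± 169.7. Both had their highest mean at 4 h and their lowest at 48 h. Hmgcs1 had 10610.0 ± 374, 6047 ± 246, 10696 ± 178, 7137 ± 1051 and 3258 ± 356, with a mean at 12 h close to that of 0 h. Ankrd1 had 3860.1 ± 697, 9820.4 ± 62.7, 4187 ± 8.11, 5450.4 ± 951 and 10554 ± 31.3, a second high level following at 48 h.

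**Figure D3:**
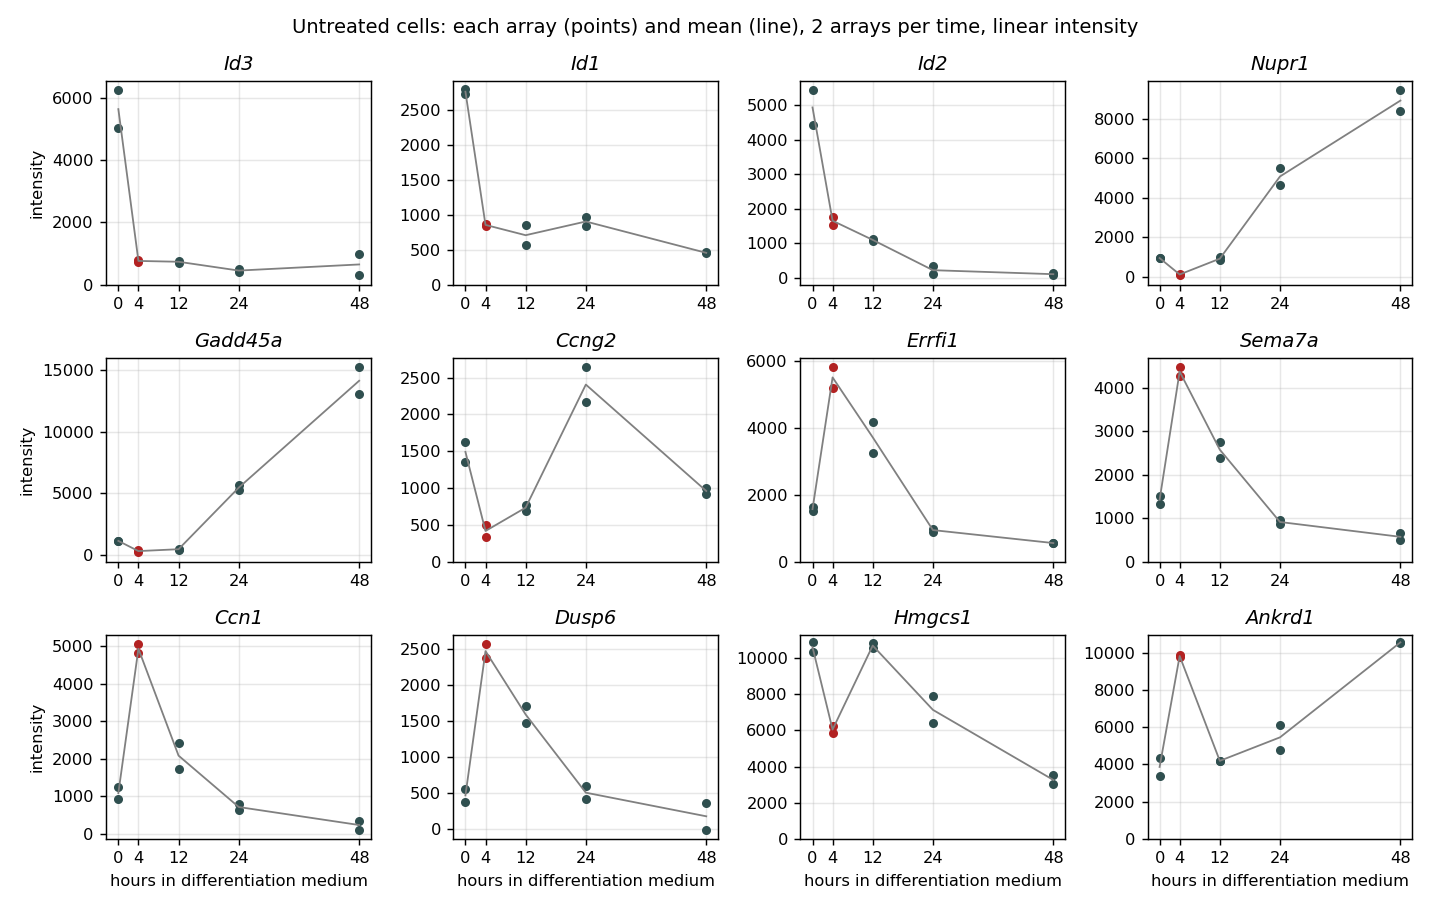
Linear intensity of 12 genes in untreated cells at 0, 4, 12, 24 and 48 h in differentiation medium; points are single arrays (2 per time, 4 h in red) and the line joins their means. Id3 stays low after 4 h, Nupr1 and Gadd45a dip at 4 h and reach their highest means at 48 h, and Errfi1, Sema7a, Ccn1 and Dusp6 peak at 4 h.

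The interval from 12 to 48 h shares no array with the first 4 h. In it 2472 of 7453 probe sets (33.2%) passed, 1165 higher (15.6%) and 1307 lower (17.5%) at 48 h. Of the 81 probe sets that rose in the first 4 h, 39 were lower, 13 were higher and 29 did not pass in that later interval, and their median later change was -0.44. Of the 72 that fell early, 36 were higher, 14 were lower and 22 did not pass later, with a median of 0.56. The largest later changes of opposite sign were rises in Gadd45a (4.64 ± 0.22, adjusted p 9.04e-09), Tnni1 (4.48 ± 0.34, 6.21e-07), Txnip (3.93 ± 0.21, 2.91e-08) and Nupr1 (3.09 ± 0.17, 2.91e-08), probe sets that had fallen at 4 h. The other Txnip probe set had not. Among the early risers the largest was in Cx3cl1, with a later change of -2.77 ± 0.16 (adjusted p 6.93e-08). The same sign was kept by Atp2a1 (3.82 ± 0.21, adjusted p 3.72e-08) and Ankrd1 (1.31 ± 0.17, 5.38e-05), which rose again, and by Dlgap5 (-2.82 ± 0.12, 5.46e-09), Nusap1 (-2.74 ± 0.16, 6.32e-08), Id2 (-2.39 ± 0.25, 1.17e-05) and 2700099C18Rik (-1.97 ± 0.12, 7.34e-08), which fell again. Genes that had not passed at 4 h changed then: Myog by 3.11 ± 0.44 (adjusted p 0.000125), Acta1 by 5.32 ± 0.27 (1.77e-08) and Myod1 by 1.37 ± 0.11 (7.98e-07). With 1 probe set per gene 919 (16.3%) rose and 1003 (17.8%) fell. Of the 26 sarcomere genes 20 rose and 1 fell between 12 and 48 h, and all 36 mitosis genes fell.

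The same change of medium was made in TSA-treated cells on 4 other arrays, which give a measurement of the first 4 h that shares no array with the untreated one, and only the estimate of spread. In these 447 probe sets (6.0%) passed, 284 higher (3.81%) and 163 lower (2.19%) at 4 h. Without the first array of TSA-treated cells at 0 h 161 passed, without the second array of 4 h 179 and without the second of 0 h 240, and a fit of the 4 arrays alone called 0 (1216 at an unadjusted p under 0.05, limma). Of the 81 probe sets that rose in untreated cells, 28 (34.6%) rose and 2 fell in TSA-treated cells, and 63 had the same sign. Of the 72 that fell in untreated cells, 27 (37.5%) fell and 2 rose with TSA, and 55 had the same sign. The 55 probe sets that passed in the same direction are 12.3% of those of TSA-treated cells and 35.9% of those of untreated cells. Across all 7453 probe sets the changes in the TSA-treated and untreated cells had a Pearson r of 0.246 and a Spearman rho of 0.236. This is a description across probe sets, which are not independent replicates.

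Id3 reached 1032 and 623 at 4 h, against 6522 and 5699.9 at 0 h, in TSA-treated cells, a change of -2.72 ± 0.34 (adjusted p 0.000582) beside -2.68 ± 0.34 in untreated cells. Id1 fell with TSA as well (-2.08 ± 0.25, adjusted p 0.000489). Id2 had 4792 and 4248 at 4 h, against 6491 and 6228 at 0 h, with TSA, and did not pass (-0.48 ± 0.25, adjusted p 0.353). Its difference from the untreated change did not pass either (adjusted p 0.219). Nupr1 (-1.54 ± 0.17, adjusted p 0.00022), Gadd45a (-1.30 ± 0.22, adjusted p 0.00389) and Ccng2 (-0.82 ± 0.21, adjusted p 0.0339) also fell with TSA. Among the rises, Sema7a (1.54 ± 0.13, adjusted p 5.42e-05), Errfi1 (1.94 ± 0.20, adjusted p 0.000145), Htr1b (1.54 ± 0.19, adjusted p 0.000582), Bysl (0.77 ± 0.14, adjusted p 0.00754), Pdgfa (0.86 ± 0.15, adjusted p 0.00589) and Ankrd1 (1.02 ± 0.17, adjusted p 0.00311) passed again. Sox11 (0.46 ± 0.13, adjusted p 0.0686), Dusp6 (1.64 ± 0.45, adjusted p 0.0527) and Ccn1 (1.25 ± 0.38, adjusted p 0.0795) had the same sign without passing. The FoxO list had 6 of 17 members lower and none higher with TSA too (median -0.39), and the sterol list 6 of 17 lower (median -0.62). Of all genes 2.45% were lower in TSA-treated cells at 4 h.

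The change differed between TSA-treated and untreated cells in 120 probe sets (1.61%), 88 with a higher (1.18%) and 32 with a lower change (0.429%) in TSA-treated cells, by a test of the difference itself. The count was 18 without the first array of untreated cells at 0 h and 72 without the first of TSA-treated cells at 4 h, the extremes of 8 fits with 1 array left out. It was 204 without a filter on dim probe sets, 210 with the filter at the 60th percentile and 2 in a fit of the 8 compared arrays. Of the 153 that passed in untreated cells, 26 were among the 120, 11 of the risers and 15 of the fallers, and the untreated arrays that chose them also enter the difference. Cx3cl1 had 696 and 898 in TSA-treated cells at 4 h, against 998 and 1117 in TSA-treated cells at 0 h, while untreated cells had 916 and 1203 at 4 h, against 297 and 209.9 at 0 h (difference -1.97 ± 0.23, adjusted p 0.00516). Gas1 had 1829 and 1914 at 4 h, against 1411 and 1149 at 0 h, with TSA (change 0.51 ± 0.18), and untreated cells had 1608 and 1850.3 at 4 h, against 3949 and 4813 at 0 h (difference 1.78 ± 0.25, adjusted p 0.00688). In both genes the 4 h levels of TSA-treated and untreated cells lay close together, and the 0 h levels stood apart. Both differences passed in all 8 fits with 1 array left out.

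The difference was frequent among mitosis genes. With 1 probe set per gene, 226 (4.01%) of 5636 genes rose and 138 (2.45%) fell in TSA-treated cells, and the difference was higher in 71 (1.26%) and lower in 24 (0.426%). In TSA-treated cells 17 of 36 mitosis genes and 10 of 32 replication genes rose at 4 h and none fell (medians 0.74 and 0.55 on the log2 scale), where in untreated cells 1 of each list fell and none rose (medians -0.24 and -0.23). The difference passed in 9 of the mitosis and 3 of the replication genes. For Cdk1, TSA-treated cells had 5600.2 and 5567 at 4 h, against 1731 and 1846 at 0 h, and untreated cells 5232 and 5230.3 at 4 h, against 6419.5 and 5089.9 at 0 h (difference 1.70 ± 0.24, adjusted p 0.00688). The TSA-treated cells were lower at 0 h and close to the untreated cells at 4 h.

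**Figure D4:**
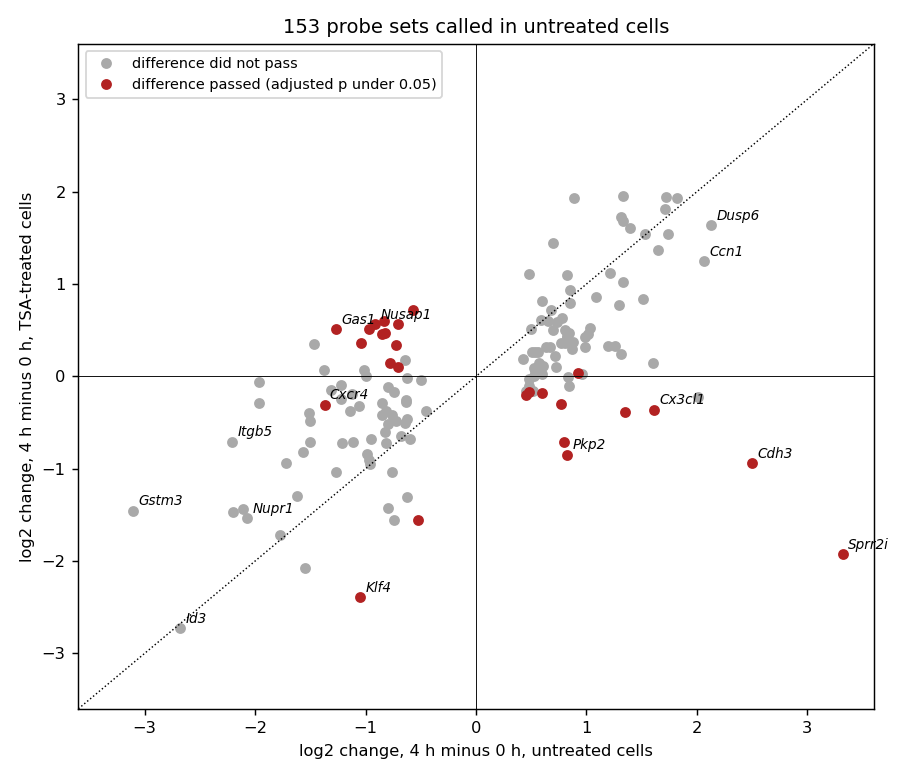
Change at 4 h against 0 h (log2) of the 153 probe sets that passed in untreated cells, in TSA-treated cells (vertical axis) and in untreated cells (horizontal axis); the dotted line marks equal changes. Red points are the 26 whose difference passed; Id3 lies near the line, at -2.72 in TSA-treated and -2.68 in untreated cells, and Cx3cl1 lies at -0.36 in TSA-treated and 1.61 in untreated cells.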

How the data were processed

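Gene expression was measured on 1-colour Affymetrix arrays of mouse probe sets. The deposited values are intensities, 1 per probe set and array, which the authors had scaled so that the trimmed mean of every array is 800. The sources used here do not name the program behind these values. The number of arrays, 2 per group, limits the precision. Probe sets were named through the platform annotation and updated by Entrez identifier: 10833 of 12422 had 1 gene symbol, 396 several and 1193 none. 66 control probe sets were left out.

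Values below 0 were set to 0, and log2(value + 137.7) was formed, the pseudocount being the 40th percentile of all values. Probe sets with a mean under the 40th percentile of means (144.9) were left out, which kept 7453. One mean per treatment and time was fitted to the 20 arrays with limma 3.58.1 in R 4.3.3 (lmFit, eBayes, 10 residual degrees of freedom), and p-values were adjusted by Benjamini-Hochberg over 7453 probe sets at a threshold of 0.05. In gene lists a gene was represented by its probe set of highest mean. Of 41 lists with 1073 genes, 717 genes were tested. Tested on simulated data for the 4 h comparison with 7453 probe sets, the fit recovered 8.96% of changes of 0.5, 61.2% of 1 and 89.4% of 2 (log2), and called 4 of 7253 unchanged probe sets. The simulated noise was normal, independent and of the same size in every group, as the fit assumes. These figures therefore do not cover array effects or a spread that differs between groups.

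The named genes were Id1, Id2, Id3, Myod1, Myf5, Myog, Mef2c, Cdkn1a, Ccnd1, Fos, Egr1, Myc, Junb, Hmgcs1, Fst and Acta1; the 20 genes per direction of largest change among those called; up to 5 called members of each list by smallest p and all tested members of the Id, myogenic, immediate early and sterol lists; the 6 genes of smallest p for the difference between TSA-treated and untreated cells and up to 6 called genes of smallest p in it; and the 5 genes each of largest later change of opposite and of same sign. One further gene of the rule is not reported here. The members and lists were chosen with earlier results of these data known. Promoter sequences came from RefSeq (build GRCm38.p6), and 110 of the 141 called genes had one. Alternatives changed the normalization, the pseudocount, the filter, the variance model, a replicate block, the suffix b of some titles, the arrays in the fit and the probe set. Figures and counts were made with Python 3.11.15, pandas 2.3.3 and matplotlib 3.10.9. In the pairing check, same-numbered arrays of 4 h and 0 h had deviations that correlated at 0.011 in untreated and 0.23 in TSA-treated cells.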

Additional observations from a re-analysis of the deposited data

Results flagged for a closer look

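The change over the first 4 h differed between TSA-treated and untreated cells, by limma's test of the difference itself, in the named genes that follow. Each value is the log2 change in TSA-treated cells minus that in untreated cells, with its adjusted p. The untreated arrays that chose some of these genes also enter the difference. Differences that passed in all 8 fits with 1 array left out were those of Cx3cl1 (-1.97 ± 0.23, 0.00516), Hmgb2, a chromatin protein of dividing cells (2.21 ± 0.27, 0.00522), Rab11b, of vesicle recycling (1.92 ± 0.24, 0.00522), Dlgap5 (1.29 ± 0.17, 0.00593), Gas1 (1.78 ± 0.25, 0.00688), Cdk1 (1.70 ± 0.24, 0.00688) and Nusap1 (1.47 ± 0.22, 0.00784).

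Hmgb2 had 6100.5 and 6529 at 4 h, against 1816 and 1802 at 0 h, in TSA-treated cells, and 5834 and 7079 at 4 h, against 10343 and 7905 at 0 h, in untreated cells. The 4 h levels of both treatments overlapped and those of 0 h stood apart. Rab11b had 2016 and 2066 at 4 h, against 543 and 761 at 0 h, with TSA, and 1153 and 1336 at 4 h, against 1961 and 1523 at 0 h, without it.

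Differences that passed with all arrays but were lost in at least 1 of the 8 fits were those of Fgf11 (-1.51 ± 0.22, 0.00784), Pkp2 (-1.67 ± 0.25, 0.00784), 2700099C18Rik (1.07 ± 0.16, 0.00829), Sprr2i (-5.25 ± 0.92, 0.0178), Nr1d2 (1.40 ± 0.26, 0.0259), Klf4 (-1.34 ± 0.26, 0.0296), Rpa2 (1.48 ± 0.31, 0.0383), Mef2d (-1.01 ± 0.23, 0.0477) and Cxcr4 (1.06 ± 0.24, 0.0483). Of these, Rpa2, Mef2d and Cxcr4 passed in none of the 8. Sprr2i had 74.5 and 579 at 4 h, against 1054 and 1699.9 at 0 h, in TSA-treated cells, beside 1749 and 1474 at 4 h, against 83 and -30.8 at 0 h, in untreated cells.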

How the results depend on the processing

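Over the first 4 h in untreated cells 153 probe sets passed, and 111 to 193 did under each other normalization, pseudocount, filter and variance model, with the suffix b as a covariate and with the replicate block. In a fit of the 10 untreated arrays 42 passed and in a fit of the 4 compared arrays 0 (1506 at an unadjusted p under 0.05). Leaving out 1 array gave 24 to 45. In TSA-treated cells the 4 arrays alone gave 0, against 447 (1216 at an unadjusted p under 0.05), and leaving out 1 array 161 to 340. The difference between treatments, with 120 probe sets, had 204 without a filter, 210 with the filter at the 60th percentile, 71 with the block of replicates, 2 (1118 at an unadjusted p under 0.05) in a fit of the 8 compared arrays and 18 to 72 with 1 array left out. Between 12 and 48 h the 4 compared arrays gave 1018, against 2472, and leaving out 1 array 1880 to 2241. In the fits of compared arrays alone the spread rests on fewer arrays. For the other moved counts the cause was not tested. Replicate numbers did not pair the arrays (correlation of deviations 0.011 in untreated cells), and the replicate block gave 114 calls in untreated and 395 in TSA-treated cells, 71 for their difference and 2471 between 12 and 48 h. Mef2c, with an adjusted p of 0.0505, passed with the replicate block (0.0229). Another probe set of the gene turned the direction in 4 of the 69 named genes called: Nusap1 (0.16), Txnip (0.41), Itgb5 (0.31) and Actn1 (-0.26), none of which passed. Among the other probe sets of these 69 genes, 11 more did not pass, without turning the direction, and 4 kept the call. Those 11 include probe sets of Fgf11 (0.27), Rgs16 (0.29), Pkp2 (0.47), Wdr43 (0.34) and Dnajc3 (0.35 and 0.48). Quantile normalization kept all 69 calls among the named genes, median centring 59, the replicate block 52, and the 10 untreated arrays 29.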

Other observations

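Outside the lists, further genes that passed at 4 h, chosen after their values were seen, touch neighbouring biology. Glul, glutamine synthetase, had 72.3 and 80.2 at 4 h, against 419 and 524 at 0 h on 1 probe set (change -1.50 ± 0.20, adjusted p 0.00337, 0.0289 to 0.0401 with 1 array left out), while its brighter probe set gave 0.22. Birc2, an inhibitor of cell death, had 1.15 and 99.2 at 4 h, against 371 and 260.4 at 0 h (change -1.31 ± 0.28, adjusted p 0.0365, 0.0347 to 0.33), while its brighter probe set gave 0.39 without passing. Kdm3a, a histone H3 lysine demethylase that hypoxia induces, had a change of -0.73 ± 0.12 (adjusted p 0.0103, 0.0377 to 0.0922). Dlk1, a membrane protein of progenitor cells, had 1065 and 930.4 at 4 h, against 359.5 and 523 at 0 h (change 0.98 ± 0.17, adjusted p 0.0122, 0.0278 to 0.183). F2r, the thrombin receptor, had 6976 and 7366 at 4 h, against 3939 and 3717 at 0 h (change 0.88 ± 0.17, adjusted p 0.0235, 0.123 to 0.152). Hmga2, a chromatin protein of growing cells, had 4270.2 and 4524 at 4 h, against 2935 and 2962 at 0 h (change 0.55 ± 0.13, adjusted p 0.0454, 0.171 to 0.261), and with Dusp6 and Cx3cl1 it was among the early risers with the largest later falls (-2.72 ± 0.13 between 12 and 48 h, adjusted p 8.94e-09).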
